A study of Mus musculus with 9 samples.

Results

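The immunoglobulin variable segments are the germline gene pieces that encode most of the antigen-binding part of an antibody chain. Members were all genes of the array whose symbol starts with Ighv (heavy chain), Igkv (kappa light chain) or Iglv (lambda light chain), each measured by a probe set that lists 1 gene symbol. This gave 199 members of 30142 genes, of which 113 were heavy chain segments in 15 families, 86 were kappa segments in 20 families and 0 were lambda segments, since the lambda probe set lists several genes. A gene symbol table of RefSeq assembly GRCm38.p6 held all 199 symbols, 189 of them as variable segments and 10 as variable segment pseudogenes. The same table lists 348 variable segments, so 149 were not members and are not described one by one.

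A developing B lymphocyte joins 1 variable segment to shorter diversity and joining segments by V(D)J recombination, and the joined exon is transcribed with a constant region such as Ighm or Igkc. Segments that were not joined are transcribed little, so their transcripts in a tissue are a readout of B cells and of the plasma cells that B cells become and that secrete antibody. Nude mice lack a working thymus and are short of T cells, but they have B cells and make IgM. Heart tissue normally holds few B cells, many of them inside its vessels.

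The hearts came from nude immunodeficient mice with chronic heart failure after permanent ligation of the left anterior descending artery of the heart, and animals with an ejection fraction under 50% entered the study. Treatment followed 3 weeks after the infarct, and whole hearts were taken 6 weeks after treatment. The vesicle group (3 arrays) received extracellular vesicles that cardiovascular progenitor cells had secreted over 48 hours, and the cell group (3 arrays) received 500000 of the progenitor cells themselves. The control group (2 arrays) received alpha-MEM, the culture medium, and the sham heart (1 array), also in chronic heart failure, was pricked with the needle 3 times without an injection. In the labels, array 1 of every group, sham included, belongs to experiment 9, and all arrays numbered 2 or 3 belong to experiment 1. The sources used here do not give the age or background strain of the mice. Nor do they say that each array is a separate animal, so the p-values measure the spread between arrays, which may be technical.

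Array medians over all probe sets ran from 4.89 to 4.92 (log2), and 6378 to 6790 genes per array exceeded the 95th percentile of that array's negative control probe sets. All 7 measured heart muscle genes of 8 listed were above it on all 9 arrays. Vesicle array 3 carried lung transcripts, with Sftpc, a surfactant protein gene, at 9.75 against 4.28 to 4.52 on 7 others. The sham array also stood apart, with Sftpc at 6.35, Sftpb at 6.34 (at most 5.93 on those 7) and Sftpa1 at 5.46 (at most 5.24). Without vesicle array 3 the median difference of the members between vesicles and control was −0.050 in place of −0.046.

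Most variable segments read below the negative controls of the array. The 10553 negative control probe sets, picked by the mark neg in their identifiers, had a median level of 4.52 and a 95th percentile of 7.19. The members' mean levels over the 9 arrays ran from 2.30 to 7.55 with a median of 3.92, against a median of 5.59 over all genes. Of the members, 131 (65.8%) had a mean below the negative control median, against 31.5% of all genes. Only Ighv2-3 exceeded the 95th percentile of the negative controls on all 9 arrays, which is 0.503% of the members against a background of 20.1% of all genes. On single arrays 5 members exceeded it at least on 1 array and 194 on none, and an array held between 1 and 5 such members. With the looser limit of the negative control median, 53 members (26.6%) were above it on all 9 arrays and 117 on none, against 65.8% of all genes above it throughout. A level under these limits is not shown to be absent, since each probe set has its own background. In whole hearts fewer B cells and less immunoglobulin RNA per cell cannot be told apart.

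**Figure D1:**
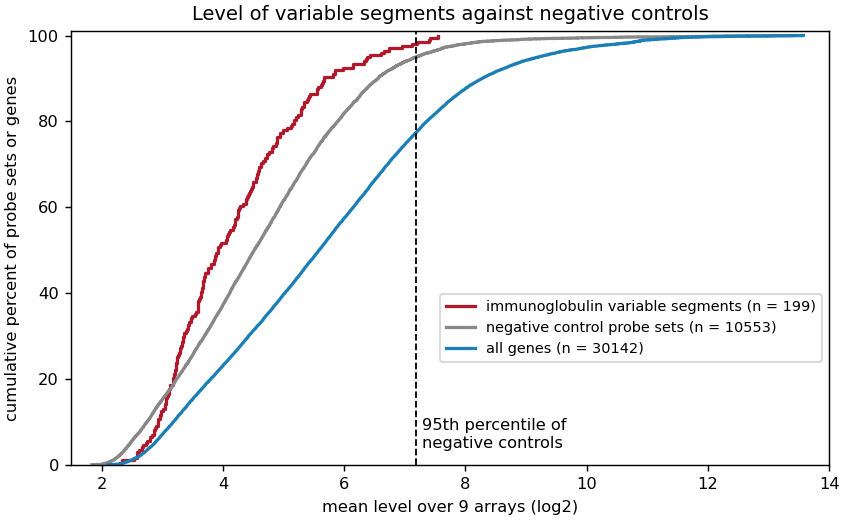
Cumulative distribution of the mean log2 level over 9 arrays for the 199 variable segments, all 30142 genes and the 10553 negative control probe sets. The curve of the segments lies to the left of the other curves, with a median of 3.92 against 4.52 for the negative controls and 5.59 for all genes.

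The heavy chain segments with the strongest signals belonged mainly to the Ighv2 family. All 8 Ighv2 members were above the negative control median on all 9 arrays, and their mean levels ran from 5.62 to 7.55 with a family median of 6.85. The largest family, Ighv1, had 61 members with a median mean level of 3.66, and 15 of them were above the negative control median on all 9 arrays. Levels of different probe sets also depend on their probes, so these figures rank signals and not transcript amounts.

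Ighv2-3 read 7.41 on the sham array, 7.48 and 7.66 on the control arrays, 7.61, 7.54 and 7.52 on the vesicle arrays, and 7.63, 7.62 and 7.46 on the cell arrays. The control, vesicle and cell groups overlapped, the sham array was the lowest of the 9, and the vesicle minus control difference was −0.011 ± 0.081 (SE). Ighv2-5 read 7.35 on the sham array, 7.40 and 7.42 on the controls, 7.35, 7.48 and 7.40 after vesicles, and 7.26, 7.46 and 7.41 after cells. It fell short of the 95th percentile on cell array 1 alone, where that limit was 7.28, the highest of the 9 arrays. Ighv2-6-8 read 7.03 on the sham array, 7.11 and 7.22 on the controls, 7.18, 7.10 and 7.11 after vesicles, and 6.81, 7.40 and 7.11 after cells, and passed the limit on control array 2 and cell array 2. Ighv2-3 and Ighv2-5 thus passed the limit on arrays of every group, the sham array included. Ighv2-6-8 passed it on no sham or vesicle array.

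Ighv1-2, which RefSeq lists as a pseudogene, exceeded the limit on 7 of 9 arrays. It read 7.30 on the sham array, 7.37 and 7.47 on the controls, 7.58, 7.93 and 7.61 after vesicles, and 7.21, 7.38 and 6.81 after cells. All 3 vesicle arrays lay above all other arrays, and cell arrays 3 and 1 the lowest. The differences were 0.28 ± 0.20 for vesicles minus control (limma adjusted p = 0.722) and 0.58 ± 0.18 for vesicles minus cells (adjusted p = 0.920), so neither passed the test. The 10 pseudogenes had mean levels from 2.34 to 7.41 with a median of 4.25, within the span of the 189 other segments, whose median was 3.92.

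The other heavy chain segments among the 12 highest means were Ighv2-2, Ighv2-4, Ighv1-56, Ighv2-1, Ighv2-9-1 and Ighv12-3, with means between 6.35 and 6.95 and no array above the 95th percentile. Ighv12-3, the 1 member of its family on the array, belongs to a family used by B-1 cells that bind phosphatidylcholine, and read from 6.21 to 6.44. Both Ighv11 members, the other family known from those B-1 cells, had mean levels of 3.18 and 3.40, below the negative control median.

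Among the kappa light chain segments 22 of 86 were above the negative control median on all 9 arrays, and 31 of 113 heavy chain segments were. Igkv15-103 was the kappa segment with the strongest signal. It read 7.20 on the sham array, 7.39 and 7.18 on the controls, 7.38, 7.12 and 7.18 after vesicles, and 7.004, 7.27 and 7.10 after cells, and exceeded the limit on 4 arrays. Its values lay around the limit in every group. Igkv12-46 followed with a mean of 6.37 and no array above the limit. The largest kappa family, Igkv4 with 25 members, had mean levels from 2.61 to 5.67.

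**Figure D2:**
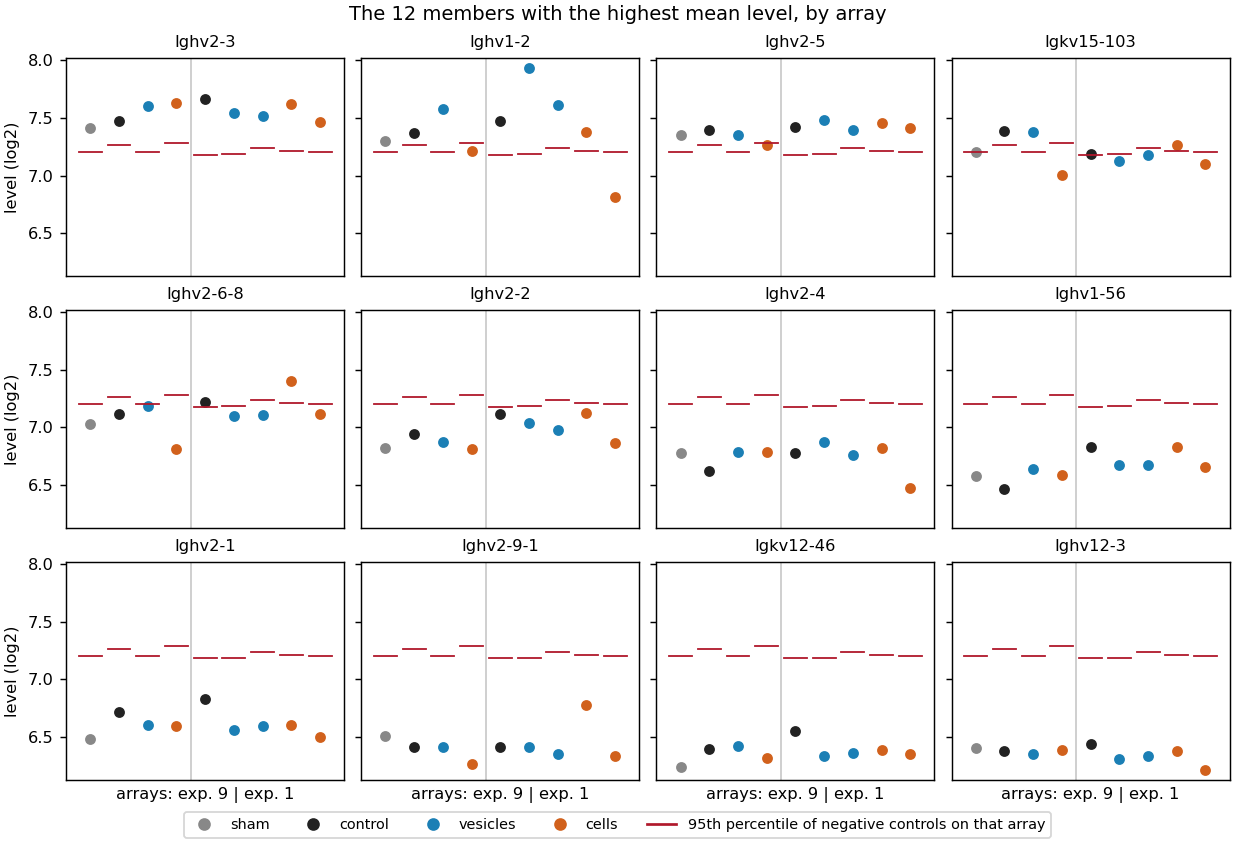
Log2 levels of the 12 variable segments with the highest means, one panel each, with a point per array by group (sham 1, control 2, vesicles 3, cells 3 arrays) and a short line at the 95th percentile of the negative controls of that array. Experiment 9 lies left and experiment 1 right of the grey line. Ighv2-3 lies above the line on all 9 arrays and Ighv2-5 on 8, and in Ighv1-2 the 3 vesicle arrays lie highest.

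Most constant region and B lineage genes also read under the 95th percentile of the negative controls. Of all genes 20.1% were above it on all 9 arrays. Of 15 constant region and joining chain genes listed, 5 had a probe set of their own, and none was above the 95th percentile on any array. Ighm, the constant region of IgM, read 5.98 on the sham array, 5.98 and 6.11 on the controls, 5.93, 5.83 and 6.14 after vesicles, and 5.98, 6.23 and 5.97 after cells, above the negative control median of every array. Jchain, which links IgM and IgA into polymers and is made by plasma cells, read 3.61 to 3.84, below that median on every array, and Ighe, of IgE, read 4.26 to 4.38, likewise below. Ighg1 read 4.88 to 4.96 and Ighg2b 4.87 to 5.15. The kappa constant region has a probe set shared with other symbols of its locus, variable segments among them, that read 5.37 to 5.53. The shared lambda probe set read 4.18 on every array, the very same deposited value.

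Of 22 B cell genes listed, 20 were measured and 19 were above the 95th percentile on no array, Cd79a and Cd79b (the signalling chains of the B cell receptor), Pax5 (the B cell identity factor) and Ms4a1 (CD20) among them, with medians over the 9 arrays of 5.37, 5.34, 5.51 and 3.54. Cd79a, Cd79b and Pax5 were above the negative control median on all 9 arrays, and Ms4a1 on none. Ebf1, a factor of early B cells that stromal and fat cell precursors also make, was above the 95th percentile on all 9 arrays at 8.08 to 8.34. Of 15 plasma cell genes, 11 were above it on none, and Xbp1, Creld2 and Txndc5, which act in the secretory pathway of many cell types, were above it on all 9 arrays. None of the 9 measured T cell genes, of 13 listed, was above it on any array. Nor was any of the 9 measured genes of recombination and the pre-B receptor, of 12 listed.

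No variable segment passed the test after vesicles. The fitted vesicle minus control difference was higher for 59 members and lower for 140 (70.4%). Of all genes 60.4% were lower, and of the 23475 genes whose mean is under the 95th percentile of the negative controls, called dim genes here, 65.3% were. The median was −0.046 over the members, −0.012 over all genes and −0.018 over the dim genes. With limma and adjustment over all genes, 0 members were called against a background of 0% of all genes, and the lowest adjusted p among the members was 0.542. At an unadjusted p under 0.05 the counts were 1 member higher (0.503%, background 1.91%) and 21 lower (10.6%, background 4.53%). All 3 vesicle arrays read below both control arrays for 41 members (20.6%, background 7.17%) and above both for 4 (2.01%, background 3.72%). A tie between a vesicle and a control array counts for neither side. Ties were commoner over all genes than among the members, so this background is not a like one. The share over the dim genes was not counted. The median was −0.037 for heavy chain and −0.057 for kappa segments. It was −0.032 in experiment 9 with 62 members higher, and −0.063 in experiment 1 with 58 higher. The difference between experiments was fitted as an interaction, which left 2 residual degrees of freedom. It called 0 members (background 0%), and 21 had an unadjusted p under 0.05 (10.6%, background 18.1%).

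The split moved with the scaling of the arrays. With each array centred on its median over all genes, 81 members were higher and 118 lower, and the median was −0.024. It moved with 1 control array too. Without control array 2 the fit gave 83 higher and 116 lower, and a median of −0.031. Without control array 1 the fit gave 60 higher and 139 lower, and a median of −0.052. Genes and members passed in that fit, but the lone remaining control was assumed to vary like the other groups, so they are not counted.

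Igkv8-21 had the lowest p of the members below control, and all its levels lay under the 95th percentile of the negative controls. It read 4.51 on the sham array, 4.77 on control array 1, 4.46 on vesicle array 1 and 4.59 on cell array 1 in experiment 9. In experiment 1 it read 5.20 on control array 2, 4.77 and 4.81 on the vesicle arrays, and 4.89 and 4.83 on the cell arrays. In each experiment the control array was the highest, and the sham array, which got no injection, read with the vesicle and cell arrays. This segment and those that follow on the lower side were named for a low p below control. Such a choice by itself makes high controls and a lower sham value more likely. The difference was −0.36 ± 0.040 for vesicles minus control (adjusted p = 0.542) and −0.27 ± 0.040 for cells minus control (adjusted p = 0.682).

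Igkv4-90 read 3.43 and 3.48 on the controls, 2.99 on the sham array, 3.34 on cell array 2 and the very same 3.33 on all 3 vesicle arrays and on cell arrays 1 and 3. Such ties narrow the spread that the test reads, and the difference was −0.13 ± 0.019 (adjusted p = 0.599). With the sham array pooled into the control group it was −5.5e-05. Ighv13-1 read 3.27 and 3.54 on the controls, 3.09, 3.28 and 3.27 after vesicles and 3.16 on the sham array, with a difference of −0.22 ± 0.041 (adjusted p = 0.675). Here vesicle array 2 read above control array 1, so the groups overlapped across the experiments.

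Igkv12-47, a pseudogene in RefSeq, read 5.82 and 5.80 on the controls, 5.53, 5.59 and 5.69 after vesicles, 5.69, 5.69 and 5.74 after cells, and 5.32 on the sham array. The controls held both highest values. Igkv4-56, likewise a pseudogene, differed by −0.12 ± 0.027 and Igkv19-93 by −0.18 ± 0.044, both with an adjusted p of 0.675. On the higher side stood Ighv5-16 at 0.16 ± 0.055, Igkv4-86 at 0.25, Igkv8-16 at 0.27, Igkv3-4 at 0.088, Ighv6-7 at 0.22 and Ighv1-2, none of which passed. Ighv5-16 read 4.20, 4.26 and 4.35 after vesicles, 4.05 and 4.16 on the controls and 4.20 on the sham array. Igkv4-86 read 4.75, 4.70 and 4.53 after vesicles against 4.40 and 4.44 on the controls.

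**Figure D3:**
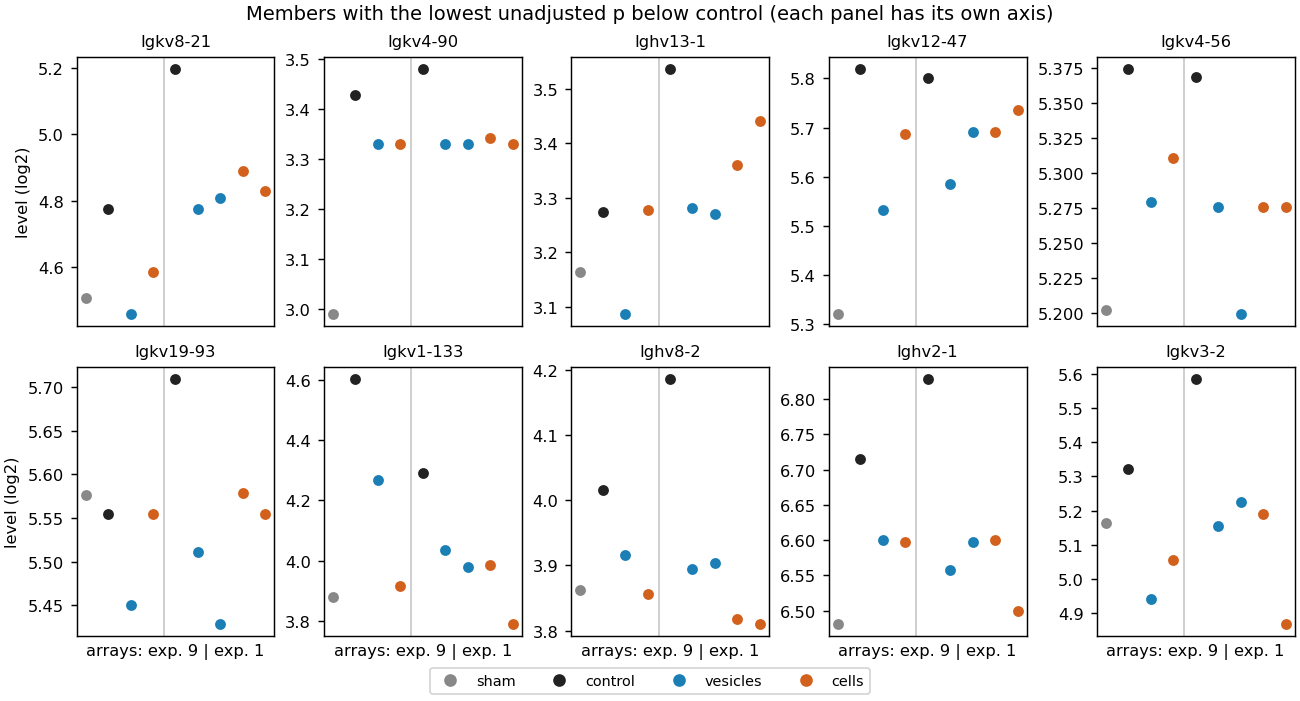
Log2 levels by array for the variable segments below control with the lowest unadjusted p, one panel each with its own axis, for sham (1 array), control (2), vesicles (3) and cells (3). In the Igkv8-21 panel the control array reads highest in each experiment, at 4.77 in experiment 9 and 5.20 in experiment 1, and no member shown passed an adjusted p of 0.05.

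After cells, again, no member passed. The comparison uses the same 2 control arrays as that of the vesicles, so the values are given side by side and are not independent. The cell minus control difference was higher for 65 members and lower for 134 (67.3%), against 55.8% lower of all genes and 62.1% of the dim genes. The median was −0.046 over the members, −0.0064 over all genes and −0.015 over the dim genes. Without cell array 3 the median of the members was −0.027, with 80 higher and 119 lower, and with the sham array pooled into the controls it was −0.029. The count called by limma was 0 (background 0%), with a lowest adjusted p of 0.682. At an unadjusted p under 0.05 there was 1 member higher (0.503%, background 1.68%) and 19 lower (9.55%, background 5.05%). All 3 cell arrays read below both controls for 34 members (17.1%, background 5.57%) and above both for 9 (4.52%, background 3.20%). The commoner ties over all genes make this background an unlike one too, and the share over the dim genes was not counted. The median was −0.0079 in experiment 9, where 84 members were higher, and −0.064 in experiment 1, where 66 were. The interaction with the experiment called 0 members (background 0%), and 30 had an unadjusted p under 0.05 (15.1%, background 18.8%). With centred arrays 86 members were higher and 113 lower, with a median of −0.017, and after quantile normalization the median was −0.028. Without control array 1, which again left a lone control, 70 members were higher and 129 lower, with a median of −0.062. Genes and members passed there too and are not counted.

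Igkv1-133 had the largest fitted difference of the members named for a low p below control, at −0.52 ± 0.091 (adjusted p = 0.682). It read 4.61 and 4.29 on the controls, 3.91, 3.99 and 3.79 after cells, 4.27, 4.03 and 3.98 after vesicles and 3.88 on the sham array. Both controls lay above all other arrays. Ighv8-2 read 4.02 and 4.19 on the controls, 3.86, 3.82 and 3.81 after cells, 3.92, 3.90 and 3.90 after vesicles and 3.86 on the sham array, and the difference for cells was −0.28 ± 0.051. Igkv3-2 read 5.32 and 5.58 on the controls, 5.05, 5.19 and 4.87 after cells and 5.16 on the sham array, with a difference of −0.44 ± 0.12. Ighv2-1, a pseudogene of the Ighv2 family, differed by −0.21 ± 0.050 and Igkv4-90 by −0.12 ± 0.019. In each of these segments the sham array lay below both controls, as the treated arrays did. They were named because their controls read above the cell arrays, which by itself makes such a sham value more likely.

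On the higher side after cells were Ighv14-2 at 0.073, Igkv5-48 at 0.24, Ighv6-7 at 0.30, the pseudogene Igkv13-87 at 0.074, Igkv6-20 at 0.31 and Ighv1-80 at 0.27, all with an adjusted p of 0.682. Ighv1-80 read 4.18, 3.64 and 3.72 after cells against 3.61 on both controls, and cell array 1 lay apart from the others. Igkv6-20 read 3.70, 3.64 and 4.10 after cells and 3.58 and 3.41 on the controls, and the sham array at 3.88 lay among the cell arrays.

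Between vesicles and cells the members were spread to both sides. The difference was higher after vesicles for 94 and lower for 105, with a median of −0.014. The test called 0 (background 0%), and 13 members had an unadjusted p under 0.05 (6.53%, background 4.34%), 5 higher and 8 lower. Ighv9-4 read 4.47, 4.35 and 4.47 after vesicles and 4.85, 4.57 and 4.77 after cells, a difference of −0.30 with an adjusted p of 0.920, and the groups did not overlap. Ighv3-5 read 3.67, 3.77 and 3.66 after vesicles and 3.59, 3.45 and 3.58 after cells, 0.16 apart, again without overlap. These segments were named here after their values had been seen. The share of members and of all genes whose vesicle and cell arrays did not overlap was not counted.

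The sham array can only be set by value against control array 1 of its experiment. It read higher for 70 members and lower for 121, with a median of −0.044 against 0 over all genes. The medians of vesicle array 1 and cell array 1 against the same control were −0.032 and −0.0079, so the sham array, which got no injection, had the lowest of the 3 medians.

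Between the experiments, 69 members were higher and 130 lower (65.3%) in experiment 9 than in experiment 1. Of the dim genes 65.9% were lower, about the same share, and of all genes 58.5%. The median was −0.025 over the members, −0.018 over the dim genes and −0.010 over all genes, and without cell array 3 that of the members was −0.042. On centred arrays the median was 0.0078, with 107 higher and 92 lower, so this direction turned with the scaling. The test called 0 members (background 0%), 5 were higher at an unadjusted p under 0.05 (2.51%, background 6.20%) and 14 lower (7.04%, background 6.56%). Igkv8-21 had the lowest adjusted p, 0.212, with a difference of −0.34 ± 0.032. Igkv8-30 of the same family read 3.48 to 3.67 on the 4 arrays of experiment 9 and 3.72 to 3.82 on the 5 of experiment 1. The difference was −0.22 ± 0.038, and the experiments did not overlap. All these levels lay under the negative control median. The segment was named for its low p, which makes such a separation more likely. The share of members and of all genes separated in this way was not counted. Ighv13-1 and Igkv17-121 differed by −0.18 and −0.19, and Ighv1-64 by 0.14.

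Across the 9 arrays the median range of the members was wider than that of all genes, whose values tied more often. The range of the dim genes was not taken. The median range from lowest to highest array was 0.374 for the members and 0.201 for all genes, and 59 members (29.6%) had the same deposited value on 3 or more arrays against 61.1% of all genes. Ighv1-67 had the widest range, 1.44, reading 3.17 on the sham array, 3.29 and 3.73 on the controls, 3.05, 3.08 and 3.90 after vesicles, and 3.40, 3.09 and 2.46 after cells. Its extremes were vesicle array 3 and cell array 3, all below the negative control median. Ighv1-2 came next at 1.12, and 2 members (1.01%) spanned over 1 log2 unit against 1.10% of all genes. Ighv1-62-2 and Ighv1-71 had identical values on every array, and cannot be told apart here.

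By their median deviation the members read highest on control array 2 and cell array 2. The median deviation of the members from their own means was 0.043 on control array 2, 0.028 on cell array 2 and 0.0052 on control array 1, and between −0.039 and 0.0040 on the other arrays, with cell array 3 lowest. Control array 2 was the highest array for 46 members (23.1%), as for 24.5% of all genes, and the lowest for 4 (2.01%), against 10.7% of all genes. Cell array 2 was the highest for 36 members (18.1%), against 7.03% of all genes. Over all genes the median deviation was 0.0054 on control array 2, the highest of the 9 arrays, and −0.0013 on cell array 2. Over the dim genes it was 0.014, again the highest, and −0.00035. That of the negative controls was −0.056 on control array 2 and −0.010 on cell array 2.

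**Figure D4:**
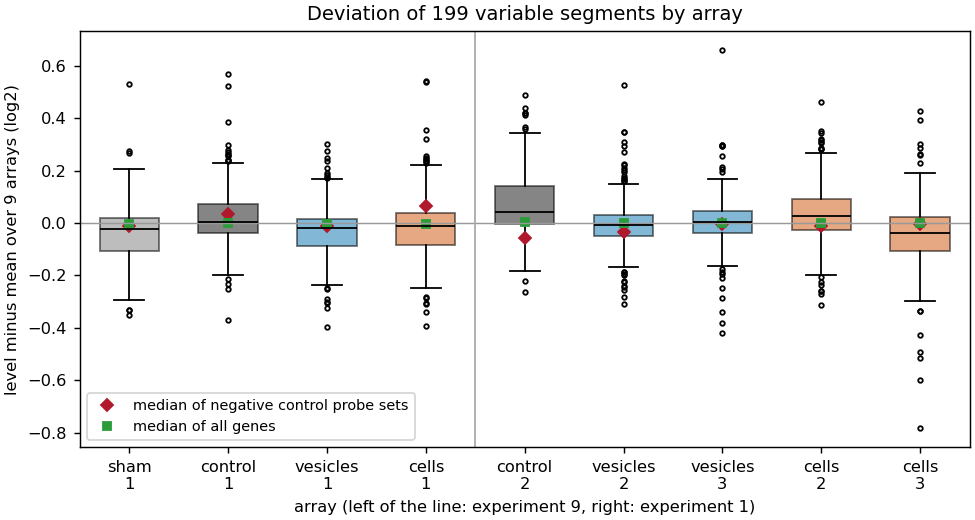
Deviation of each of the 199 variable segments from its own mean over 9 arrays (log2), by array, with experiment 9 left and experiment 1 right of the line. Boxes span the quartiles with the median as a line, whiskers reach 1.5 times the box, diamonds mark the median of the negative control probe sets and squares that of all genes. The median deviation of the segments is highest on control array 2, at 0.043, and lowest on cell array 3, at −0.039.

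Some of the other immune lists read highest on control array 2 and some did not. It was the highest array for 15 of 20 B cell genes, 8 of 9 T cell genes, 9 of 14 genes of B cell attraction and survival and 7 of 10 Fc and polymeric immunoglobulin receptor genes, against 24.5% of all genes. It was the highest for 0 of 5 constant region and joining chain genes, 4 of 15 plasma cell genes, 4 of 9 recombination genes and 3 of 10 myeloid genes. The B cell genes had a median deviation of 0.074 there and between −0.015 and −0.0020 on the other arrays, and the T cell genes 0.13 there. After vesicles 2 of the 20 B cell genes were higher and 18 lower, with a median of −0.050, and after cells the same counts with −0.052, and none passed the test. Over the 14 genes of B cell attraction and survival the median deviation was 0.11 on control array 2, 0.0027 on control array 1 and 0.0031 on cell array 2. Of these genes Cxcl12 was lowest on cell array 2, at 7.84. Both control arrays and cell array 2 held the highest levels of Cxcl13, the chemokine that draws B cells into follicles. Cxcl13 read 6.12, 6.74 and 6.48 there against 4.85 to 5.62 on the other arrays. It passed the 95th percentile of the negative controls on no array. Its difference was −1.33 ± 0.50 after vesicles (adjusted p = 0.675) and −1.09 ± 0.50 after cells (adjusted p = 0.682). The part of these genes and of control array 2 in the members' lower values after treatment was not tested, and the medians without that array were −0.031 for vesicles and −0.039 for cells.

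The lists of other genes gave no call either. After vesicles the higher and lower counts were 5 and 10 for plasma cell genes, 2 and 7 for recombination, 2 and 12 for attraction and survival of B cells, 1 and 9 for Fc receptors, 1 and 8 for T cells, 5 and 5 for myeloid cells, 8 and 2 for lung, 3 and 3 for fat, 0 and 2 for red blood cells and 4 and 3 for heart muscle. After cells they were 4 and 11, 4 and 5, 0 and 13, 2 and 8, 1 and 8, 2 and 8, 0 and 10, 3 and 3, 0 and 2, and 5 and 2 in the same order. Of the constant regions 1 was higher and 4 lower after vesicles and 0 and 5 after cells.

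Cell array 2 and the Igkv4 family were both singled out after their values had been seen. Many members of that family read higher on that array than on any other. Of 25 Igkv4 members 13 (52%) had their highest value on that array, against 23 of the 174 other members (13.2%), and 21 lay above their own mean. The share was the largest of any family, ahead of Ighv2 at 37.5%, so the contrast with the other members follows partly from the choice. Only 6 Igkv4 members were above the negative control median on all 9 arrays. Igkv4-50 read 3.33 on cell array 2, below that array's negative control median of 4.53, against 2.47 to 3.02 elsewhere. Igkv4-59 read 5.26 against 4.67 to 4.998. Igkv4-62 read 5.25 against 4.75 to 5.13. Control array 2 was the highest for 2 Igkv4 members. The Ighv2 family did not set cell array 2 apart from control array 2: of its 8 members 3 were highest on each, with a median deviation of 0.11 on both. Ighv2-9-1 read 6.77 on cell array 2 against 6.26 to 6.51. Ighm was highest there too, at 6.23, with 6.14 on vesicle array 3 and 6.11 on control array 2. It stayed under the 95th percentile of the negative controls on every array. The other constant region and joining chain genes peaked elsewhere, Ighg1 and Jchain on control array 1 and Ighg2b and Ighe on vesicle array 3. The B cell genes had a median deviation of −0.0027 on cell array 2. This concerns 1 array, so it gives no test of the condition, and cell arrays 1 and 3 were the highest array for 0 of the Igkv4 and 0 of the Ighv2 members.

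Probe sets that list several immunoglobulin genes are no members, and 24 of them hold a variable segment. The probe set listed for Ighm and Ighv2-6 read 7.60 on cell array 2 and 6.28 to 6.39 on the 8 other arrays, and passed the 95th percentile of the negative controls, 7.21, on that array alone. The probe set listed for Igkv4-53 and Igkv6-23 read 4.20 on cell array 2 and 3.20 to 3.38 elsewhere, below the negative control median throughout. Igkv4-53 also has a probe set of its own, which read 3.34 on cell array 2 and 3.21 to 3.52 elsewhere, so the signal was not shared by both. The other 22 of the 24 were less than 0.25 above the higher control array on every array. A second probe set with Ighm, listed with Ighv2-7, read 6.57 on cell array 2 and 6.42 to 6.66 elsewhere.

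**Figure D5:**
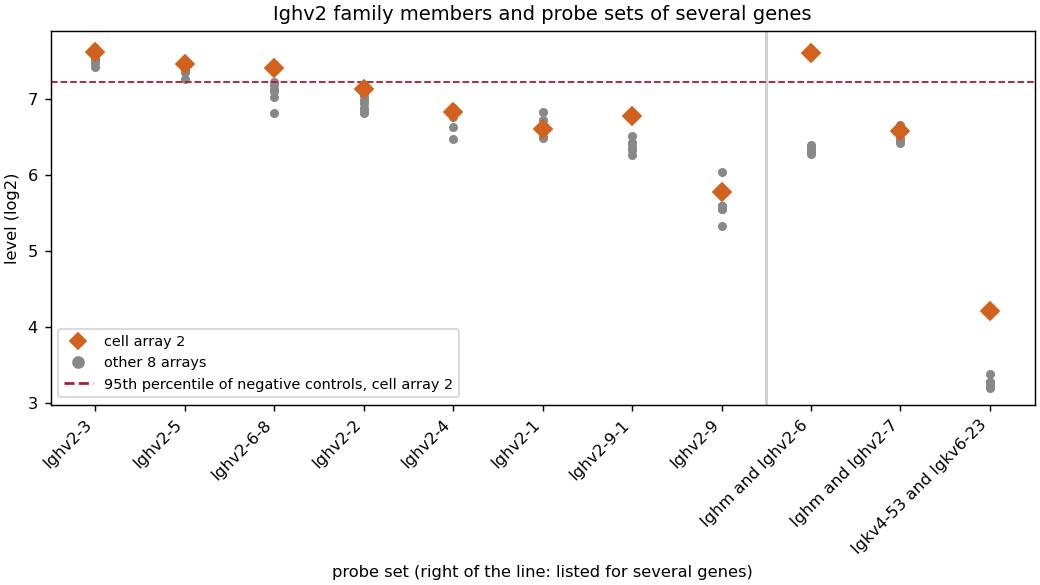
Log2 levels by array of Ighv2 family members and of probe sets that list several immunoglobulin genes, with cell array 2 as a diamond, the 8 other arrays as grey points and the 95th percentile of the negative controls on cell array 2 as a dashed line. The probe set of Ighm and Ighv2-6 stands at 7.60 on cell array 2 against 6.28 to 6.39 on the 8 others, and that of Igkv4-53 and Igkv6-23 at 4.20 against 3.20 to 3.38.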

How the data were processed

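RNA from whole frozen hearts was extracted with Trizol and labelled by the Affymetrix whole-transcript sense target method, per the labels' protocols. The authors deposited 1 log2 value per probe set and array, read as log2 because values run from 1.55 to 14.2. The sources used here do not give their background correction or normalization. The submitters' processing notes name Partek, with no role. Values were used as they stand, since array medians over all probe sets nearly agree. Over the genes the array medians ran from 5.56 to 5.63, with control array 2 highest, and other scalings were run as alternatives. Normalization between arrays leaves only differences relative to the bulk of an array, and with few arrays the precision is low.

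Of 80202 probe sets, 32750 have a name in the platform's probe table, 30604 with 1 symbol and 2146 with several, which give no member. Symbols were updated through RefSeq, and 827 changed. For 355 genes with several probe sets the one with the highest mean was kept, which left 30142 genes, and no member had several. Detection was read against each array's own negative control probe sets, at their 95th percentile.

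The 8 arrays of the injected groups entered a linear model in limma 3.58.1 (lmFit, eBayes; R 4.3.3) with the treatment and, as a fixed block, the experiment (4 residual and 1.18 prior degrees of freedom). Tests were two-sided, with Benjamini-Hochberg adjustment over all genes and a threshold of 0.05. Standard errors follow the sign ±. The steps were tested on simulated data. Named members were those with the 12 highest means, the lowest unadjusted p per direction with the same sign in both experiments, or the widest range, and Igkv8-21. Alternatives were no block, other scalings, filters and probe set rules, an intensity trend, the sham array pooled with the controls, and each array left out. The members, the 12 lists of other genes and these rules were chosen with earlier results of these data known. A VTS number in the titles has no stated meaning and served only in a block added after seeing the data.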

Additional observations from a re-analysis of the deposited data

Results flagged for a closer look

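Among the probe sets that list several genes, which gave no member, 2 stood above the control arrays on cell array 2. The probe set listed for Ighm and Ighv2-6 read 7.60 there, 1.24 above the higher control array, and was the only one of the 24 with a variable segment that passed the 95th percentile of the negative controls on any array. The probe set listed for Igkv4-53 and Igkv6-23 read 4.20 there, 0.93 above the higher control array and still under the negative control median of that array, 4.53. The other cell arrays did not share either value: the first probe set read 6.36 on both and the second 3.38 and 3.27. These are values of 1 array, and their source was not tested.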

How the results depend on the processing

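The tests called 0 genes in each of the 4 comparisons. For vesicles against cells and for the experiments this held under every alternative run. Leaving out each array in turn gave 0 to 823 genes and 0 to 4 members for vesicles against control, and 0 to 901 genes and 0 to 3 members for cells against control, where the high counts all came without control array 1. With the sham array pooled into the controls 1 gene passed for cells against control, Fgfbp3, at −0.24, which is no member. The median over members for cells against control was −0.017 on arrays centred on their median, and −0.090 over the 24 members left once genes under the 50th percentile of mean level were dropped. The median between the experiments turned to 0.0078 on centred arrays, and was −0.0020 after quantile normalization. For vesicles against cells the median lay near 0, at 0.012 over those 24 members and −0.029 to 0.0051 with an array left out. Without the experiment block the medians were −0.041 for vesicles and −0.039 for cells. The number of members above the negative controls on all arrays was 53 at their 50th and 0 at their 99th percentile, and 1 to 2 with an array left out, the second being Ighv2-5 without cell array 1. Every title ends in the same replicate number, but arrays of different groups share an experiment and a VTS number. A replicate block of both numbers, chosen after seeing the data, left 3 residual degrees of freedom and called 0 genes in each comparison of groups, with medians of −0.051 for vesicles and −0.050 for cells against control and −0.014 for vesicles against cells. Deviations from group means correlated at 0.031 to 0.224 over genes in the 7 pairs of arrays that share both numbers, and at −0.209 to 0.200 in the 4 pairs that share the experiment alone, so the VTS number was not taken to pair the arrays. Signals near or below the negative controls limit what can be read for 194 of the 199 members.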
